A study of Mus musculus with 4 samples.

Results

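The genes described here are 42 mouse genes of DNA double-strand break and interstrand crosslink repair, chosen by name from the homologous recombination, Fanconi anaemia, end joining and damage signalling pathways. Of these, 34 had a row in the table of 22883 gene models, each under a single row, and all 34 passed the filter on low values. Rad54l, Xrcc3, Fanca, Fanci, Fancl, Atr, Atrip and Trp53bp1 had no row under those symbols and are not analysed here. All 34 genes had a mean above the filter in the Exosc3-present libraries, so none entered the test through a rise.

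RNA came from V6.5 mouse embryonic stem cells carrying a conditional knockout of Exosc3. Its product belongs to the core of the RNA exosome, which degrades and trims RNA from the 3′ end. In the Exosc3-depleted group (2 libraries) doxycycline had been withdrawn for 3 days; in the Exosc3-present group (2 libraries) it was kept at 0.1 µg/ml for the same time. Both groups were clones with the same conditional allele, grown without feeders, so doxycycline and Exosc3 changed together and no unmodified line was compared. Nothing in the labels ties the replicates to different cultures or clones, so p-values measure only the spread between these samples, which may be technical.

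A double-strand break is a cut through both strands of DNA. Cells join the ends directly, through the Ku proteins and DNA ligase IV, or resect them and copy the sister chromatid by homologous recombination, in which BRCA1 and BRCA2 act. The Fanconi anaemia proteins unhook crosslinks that block replication forks, and the kinases ATM and ATR signal damage to the checkpoint kinases. Embryonic stem cells, which spend much of their cycle in S phase, are known to rely strongly on recombination.

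Exosc3 itself was at 0.663 ± 0.0401 FPKM in Exosc3-depleted cells and 23.7 ± 0.697 FPKM in Exosc3-present cells (SD, n = 2 each), which fits the labels of all 4 libraries. FPKM is the number of fragments scaled by gene model length and library total. Library totals recovered from the steps of the values were 38095698 and 41968325 fragments in the Exosc3-depleted libraries and 60851774 and 55233386 in the Exosc3-present libraries, of which 42.4% and 44.0%, and 49.7% and 51.8%, lay in listed gene models. Across all 9336 tested rows, limma on log2(FPKM + 0.5) called 30.1% lower and 12.6% higher in Exosc3-depleted cells at an adjusted p under 0.05, and the median row was at log2 -0.27. That lean depended on scaling: 29.6% of called rows were higher as deposited, against 46.7% after median-of-ratios scaling, 46.8% after quantile normalization, 45.5% with TMM factors of the recovered fragments, 49.5% with limma-voom on those fragments and 53.7% after scaling without the 50 highest rows. The 7 embryonic stem cell markers with a row summed to 1960 and 1300 FPKM in Exosc3-depleted libraries, against 3100 FPKM in each Exosc3-present library, and 5 of the 7 were called lower, among them Klf4, Esrrb and Tdgf1. Pou5f1, which encodes OCT4, was at 413 and 286 FPKM against 471 and 434 FPKM and did not pass. The 10 fibroblast markers summed to 3.38 and 2.79 FPKM against 4.0 and 3.87 FPKM, with Postn, Lum and Dcn at 0 in every library. Only 4 of the 10 passed the filter on low values. Thy1 (called lower) did so only through the Exosc3-present group, and Twist1 and Pdgfra (called higher) only through the Exosc3-depleted group, so these calls say little.

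In Exosc3-depleted cells, 14 of the 34 repair genes were called lower in FPKM (41.2%, beside 30.1% of all tested rows) and 1 higher (2.94%, beside 12.6%). The 14 were Brca1, Brca2, Bard1, Rad51c, Exo1, Mre11a, Fancd2, Fance, Chek1, Chek2, Mdc1, H2afx, Xrcc6 and Parp1, and the single rise was Xrcc1. The other 19 did not pass. In bulk RNA, fewer cells of a kind and less RNA per cell cannot be told apart. The median of the 34 log2 fold changes was -0.61, against -0.27 over all tested rows. Both Exosc3-depleted libraries lay below both Exosc3-present libraries for 24 of the 34 genes (50.9% of all tested rows) and above them for 3 (22.2% of all tested rows). Of the 14 lower genes, 8 passed under each of the 17 other settings that were run, namely Bard1, Exo1, Fance, Chek2, Mdc1, H2afx, Xrcc6 and Parp1. Leaving out a library moved the median log2 fold change. It was -0.32 and -0.97 for the 34 genes without Exosc3-depleted replicate 1 or replicate 2 (all rows: -0.19 and -0.36). Without Exosc3-present replicate 1 or replicate 2 it was -0.71 and -0.58 (all rows: -0.3 and -0.24). Scaling moved the counts of the repair genes and of all rows. Median-of-ratios scaling called 13 of the 34 lower beside 19.8% of all rows, and quantile normalization 13 beside 19.2%. Scaling without the 50 highest rows called 9 beside 14.2%. Over the 5 other scalings the repair genes had medians between -0.48 and -0.30, and all rows between -0.07 and 0.03. Cell cycle genes were lower as well: 14 of 15 tested G1/S and replication genes, among them Ccne1, Uhrf1 and Cdc6, and 12 of 16 G2/M genes, among them Aurkb, Ccnb2 and Cdk1. The G1/S list summed to 478 and 480 FPKM in Exosc3-depleted libraries against 974 and 1070 FPKM in Exosc3-present libraries, and the G2/M list to 307 and 370 FPKM against 663 and 749 FPKM. Their part in the result for the repair genes was not tested.

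**Figure D1:**
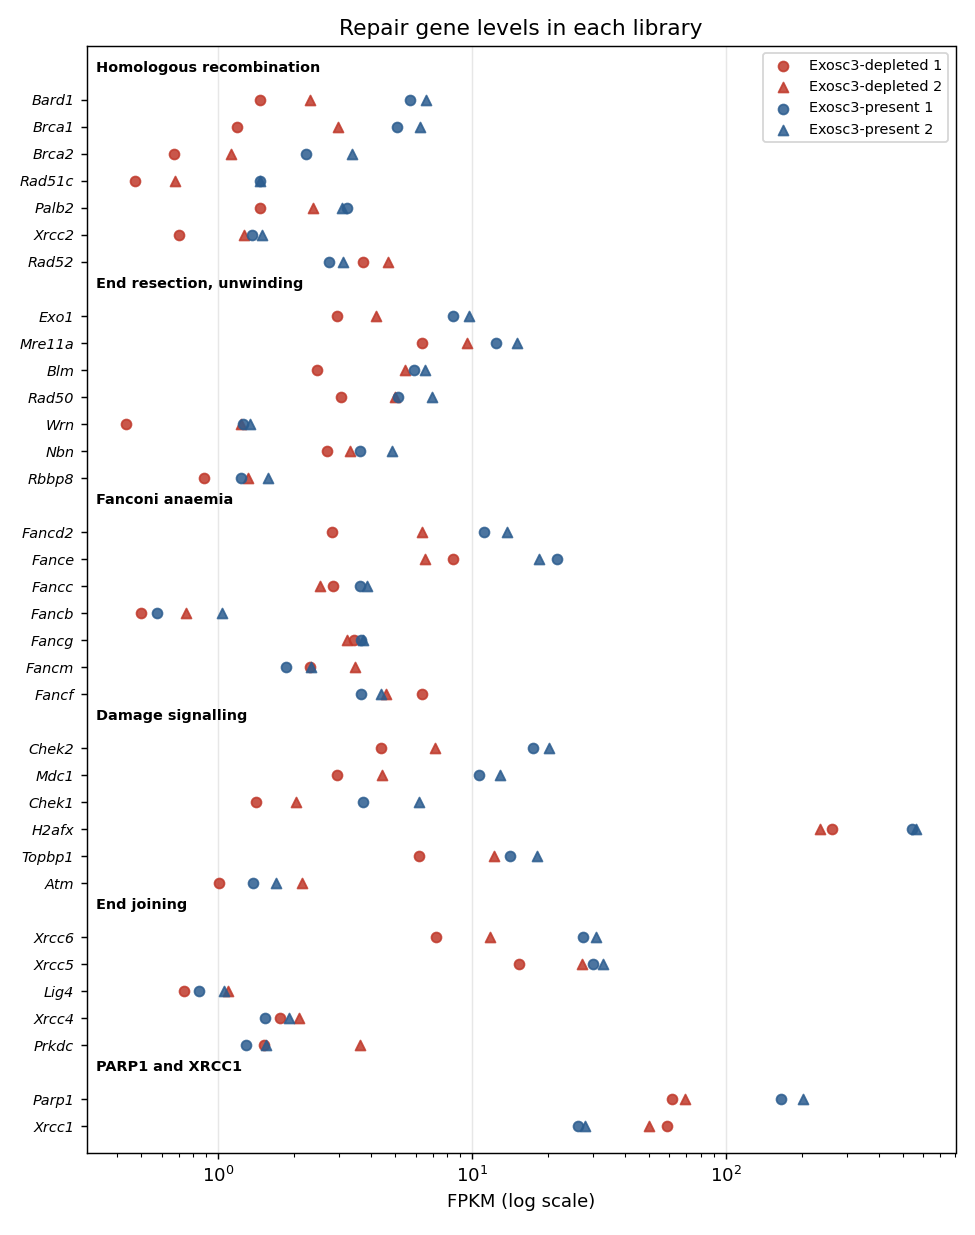
FPKM (log scale) of the 34 repair genes in each library, grouped by role, with Exosc3-depleted libraries in red, Exosc3-present libraries in blue, circles for replicate 1 and triangles for replicate 2. Red points lie left of both blue points for 24 genes, among them H2afx (262 and 235 against 542 and 561 FPKM), and right of both for Xrcc1, Rad52 and Fancf.

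The promoters shown were chosen by size of change: those of the 4 genes with the largest falls and of Xrcc1, the single rise. The first 4 hold a short element that this choice did not use. The sequences are those of RefSeq (GRCm38.p6), from 250 bases before to 50 bases after the listed start site, and were matched by symbol, since the expression table carries no coordinates. Capitals mark an 8-base core bound by E2F factors, the regulators of S-phase genes, searched as TTTCGCGC, TTTGGCGC, TTTCCCGC or TTTGCCGC on either strand. Chek2 is at chr5:110839733-110840032 (+ strand), Xrcc6 at chr15:82016119-82016418 (+), Mdc1 at chr17:35841248-35841547 (+), Bard1 at chr1:71102923-71103222 (- strand) and Xrcc1 at chr7:24546449-24546748 (+).
Chek2: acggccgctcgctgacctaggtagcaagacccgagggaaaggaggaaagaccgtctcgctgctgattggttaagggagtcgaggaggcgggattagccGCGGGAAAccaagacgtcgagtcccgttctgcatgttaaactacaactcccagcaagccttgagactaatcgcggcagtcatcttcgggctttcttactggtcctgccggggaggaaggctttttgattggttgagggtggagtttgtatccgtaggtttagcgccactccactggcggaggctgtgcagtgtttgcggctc
Xrcc6: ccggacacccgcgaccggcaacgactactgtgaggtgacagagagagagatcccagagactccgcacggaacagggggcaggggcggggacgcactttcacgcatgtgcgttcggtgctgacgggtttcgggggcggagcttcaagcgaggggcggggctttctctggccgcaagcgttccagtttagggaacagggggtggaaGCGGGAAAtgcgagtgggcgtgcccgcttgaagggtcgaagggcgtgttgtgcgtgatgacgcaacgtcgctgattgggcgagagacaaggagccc
Mdc1: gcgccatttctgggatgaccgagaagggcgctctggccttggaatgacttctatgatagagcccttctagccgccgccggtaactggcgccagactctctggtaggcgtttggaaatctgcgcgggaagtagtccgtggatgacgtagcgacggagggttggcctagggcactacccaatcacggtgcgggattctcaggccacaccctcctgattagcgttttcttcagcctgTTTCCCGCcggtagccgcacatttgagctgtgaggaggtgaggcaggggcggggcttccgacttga
Bard1: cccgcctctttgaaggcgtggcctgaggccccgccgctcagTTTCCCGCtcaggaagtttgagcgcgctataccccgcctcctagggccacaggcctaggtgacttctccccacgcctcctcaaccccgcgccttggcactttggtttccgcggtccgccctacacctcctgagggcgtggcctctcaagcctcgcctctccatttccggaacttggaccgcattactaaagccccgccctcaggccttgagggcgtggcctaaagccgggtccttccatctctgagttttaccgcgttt
Xrcc1: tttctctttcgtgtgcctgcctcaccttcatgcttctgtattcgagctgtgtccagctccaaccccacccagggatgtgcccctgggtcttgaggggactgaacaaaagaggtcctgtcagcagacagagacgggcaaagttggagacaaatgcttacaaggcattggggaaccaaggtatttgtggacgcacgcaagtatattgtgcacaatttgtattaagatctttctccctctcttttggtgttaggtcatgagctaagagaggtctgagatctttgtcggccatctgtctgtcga

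With the start site counted as 0, the E2F core lay at -152 to -145 in Chek2, -46 to -39 in Xrcc6, -16 to -9 in Mdc1 and -209 to -202 in Bard1, each time as TTTCCCGC or its reverse complement. None of the 4 overlapped a GGGCGG box, the core of Sp1 sites. The Xrcc1 window held neither, and which start site these cells use was not examined. Of the 25 repair genes with both a row and a promoter in the table, 8 (32.0%) held an E2F core, against 5.2% of 6370 tested genes with a promoter and 2.6% of all 27025 genes in the table. The 8 were Brca2, Bard1, Rad51c, Fancg, Chek2, Topbp1, Mdc1 and Xrcc6, of which 6 were among the 11 lower genes with a promoter and 2 among the 13 that did not pass. Among all lower rows with a promoter, 131 of 1981 (6.6%) held the core. The GGGCGG box was in 68.0% of the repair genes and 72.9% of tested genes, and the cell cycle homology element (TTTGAA or TTCGAA), the site of the DREAM repressor complex, in 1 of 25 (Bard1) against 15.6%. A match of letters is a description and shows no binding.

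Among the recombination genes, 4 of 7 fell (57.1%, beside 30.1% of all tested rows) and none rose. Bard1 (uc007bjm.2), the partner with which BRCA1 forms a ubiquitin ligase, had 1.47 and 2.3 FPKM in Exosc3-depleted cells, against 5.71 and 6.62 FPKM in Exosc3-present cells, a 3.27-fold fall (log2 -1.50, SE 0.23, limma adjusted p = 0.00278). Brca1 (uc007lpd.2) had 1.19 and 2.97 FPKM against 5.07 and 6.23 FPKM (log2 -1.34, SE 0.34, adjusted p = 0.0185). The groups of both genes were apart, but the Exosc3-depleted libraries of Brca1 differed from each other by more than its Exosc3-present ones. Brca1 did not pass with scaling without the 50 highest rows (adjusted p = 0.107) or with no filter on low values (0.06). Brca2 (uc009aty.1), whose product acts on the resected single strand, had 0.672 and 1.13 FPKM against 2.22 and 3.36 FPKM (log2 -1.23, SE 0.25, adjusted p = 0.00822). Its adjusted p was 0.0519 without Exosc3-present replicate 2, the higher of the pair, and 0.0501 with scaling without the 50 highest rows. Rad51c (uc007ktp.2), a gene of strand exchange, had 0.471 and 0.678 FPKM against 1.47 and 1.46 FPKM (log2 -0.88, SE 0.17, adjusted p = 0.00715), from as few as 53 fragments in a library, and 0.0514 without Exosc3-present replicate 2.

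Palb2, which links BRCA1 to BRCA2, was at 1.92 ± 0.637 and 3.14 ± 0.0974 FPKM (SD, n = 2 each; log2 -0.61, adjusted p = 0.0687) and did not pass, although its groups were apart. Xrcc2, also a gene of strand exchange, had 0.702 and 1.27 FPKM in Exosc3-depleted cells against 1.36 and 1.49 FPKM in Exosc3-present cells (log2 -0.40, adjusted p = 0.193). Rad52, which anneals single strands, went the other way on average, with 3.73 and 4.67 FPKM against 2.73 and 3.12 FPKM (log2 0.45, adjusted p = 0.11). It did not pass as deposited, and was called higher under 6 of the 17 other settings.

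Of the 7 genes that cut back or unwind broken ends, 2 fell and none rose, a share (28.6%) near the 30.1% of all rows. Exo1 (uc007dtu.2), the exonuclease of long-range resection, had 2.95 and 4.21 FPKM in Exosc3-depleted cells and 8.44 and 9.77 FPKM in Exosc3-present cells (2.54-fold; log2 -1.25, SE 0.22, adjusted p = 0.00475). Mre11a (uc009ofc.1), the nuclease of the MRE11-RAD50-NBN complex, had 6.34 and 9.58 FPKM against 12.4 and 15.1 FPKM (log2 -0.77, SE 0.24, adjusted p = 0.0368). This call was the least stable of the 14 and held under 9 of 17 other settings, with adjusted p-values of 0.103 and 0.31 when Exosc3-present replicate 1 or replicate 2 was left out. Rad50, the complex's ATPase, was at 4.01 ± 1.37 and 6.06 ± 1.29 FPKM (log2 -0.56, adjusted p = 0.134). Nbn, its adaptor to ATM, was at 3.0 ± 0.44 and 4.23 ± 0.838 FPKM (log2 -0.43, adjusted p = 0.148). Rbbp8, which encodes the resection factor CtIP, had overlapping groups at 0.879 and 1.31 FPKM against 1.23 and 1.58 FPKM (log2 -0.26, adjusted p = 0.339). The RecQ helicase genes Blm and Wrn each had one Exosc3-depleted library close to the Exosc3-present pair. Blm had 2.45 and 5.45 FPKM against 5.89 and 6.56 FPKM (log2 -0.68, adjusted p = 0.135), and Wrn 0.436 and 1.23 FPKM against 1.25 and 1.34 FPKM (log2 -0.49, adjusted p = 0.203).

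Of 7 tested Fanconi anaemia genes 2 fell and none rose. That share (28.6%) was near the 30.1% of all tested rows, and their median log2 fold change of -0.21 was close to that of all rows. Fance (uc012aof.1), the core complex subunit that contacts FANCD2, had 8.45 and 6.51 FPKM in Exosc3-depleted cells, against 21.6 and 18.4 FPKM in Exosc3-present cells (2.67-fold; log2 -1.37, SE 0.20, adjusted p = 0.0025). Fancd2 (uc009dgx.2), which the core complex tags with ubiquitin at a crosslink, had 2.81 and 6.38 FPKM against 11.2 and 13.7 FPKM (2.72-fold; log2 -1.44, SE 0.34, adjusted p = 0.0145), and did not pass with scaling without the 50 highest rows (0.0896). The other tested genes of the pathway did not pass. Fancg was at 3.42 and 3.23 FPKM against 3.66 and 3.72 FPKM (log2 -0.13, adjusted p = 0.587), and its sign turned positive under 5 other scalings. Fancb had 0.497 and 0.75 FPKM against 0.578 and 1.04 FPKM (log2 -0.21, adjusted p = 0.482). Fancc was at log2 -0.41 (adjusted p = 0.116), Fancf at log2 0.39 (0.199), and Fancm, the DNA translocase that anchors the complex, at log2 0.37 (0.241). Fancm was called higher under 3 of the 17 other settings, among them median-of-ratios scaling (log2 0.57, limma adjusted p = 0.0468) and limma-voom (log2 0.72, adjusted p = 0.0439). The ratio of Fancd2 to Fancg was 0.82 and 1.97 in Exosc3-depleted libraries and 3.06 and 3.69 in Exosc3-present libraries.

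Of the 6 tested genes of damage signalling 4 fell (66.7%, beside 30.1% of all tested rows) and none rose. Chek2 (uc008yrw.1), the checkpoint kinase downstream of ATM, had 4.39 and 7.13 FPKM in Exosc3-depleted cells, against 17.4 and 20.2 FPKM in Exosc3-present cells, a 3.26-fold fall and the largest of the 34 on the log2 scale (log2 -1.66, SE 0.25, adjusted p = 0.00261). Mdc1 (uc008cir.1), the scaffold that binds phosphorylated H2AX, had 2.94 and 4.43 FPKM against 10.7 and 12.9 FPKM (3.2-fold; log2 -1.57, SE 0.23, adjusted p = 0.00254). H2afx (uc009pcy.1), the gene for H2AX itself, was by level the first of the repair genes in both groups, with 262 and 235 FPKM against 542 and 561 FPKM (2.22-fold; log2 -1.15, SE 0.15, adjusted p = 0.00172). These 3 genes kept well-separated groups, and each passed in all 17 other settings. Chek1 (uc009otw.2), the kinase downstream of ATR, had 1.41 and 2.03 FPKM against 3.71 and 6.2 FPKM (log2 -1.27, SE 0.28, adjusted p = 0.0103). Without Exosc3-present replicate 2, the higher of its pair, the adjusted p was 0.108; it was 0.0607 with scaling without the 50 highest rows. Topbp1, the activator of ATR, had 6.17 and 12.2 FPKM against 14.1 and 18 FPKM (log2 -0.83, adjusted p = 0.0707). Atm, the apical kinase, had 1.01 and 2.14 FPKM against 1.37 and 1.7 FPKM (log2 -0.02, SE 0.28, adjusted p = 0.954), with the Exosc3-depleted pair on either side of the Exosc3-present pair and a sign that turned positive under 5 other scalings.

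Of the 5 tested end joining genes 1 fell, a share of 20% that lies below the 30.1% of all tested rows, and none rose. Xrcc6 (uc007wxz.1), which encodes Ku70, had 7.24 and 11.8 FPKM in Exosc3-depleted cells, against 27.3 and 30.9 FPKM in Exosc3-present cells (3.06-fold; log2 -1.60, SE 0.25, adjusted p = 0.00291). Xrcc5, which encodes its obligate partner Ku80, had 15.4 and 27.1 FPKM against 30 and 32.8 FPKM (log2 -0.61, SE 0.27, adjusted p = 0.113). The ratio of Xrcc6 to Xrcc5 was 0.472 and 0.435 in Exosc3-depleted libraries and 0.911 and 0.945 in Exosc3-present libraries. The groups of this ratio were apart, but 2 libraries against 2 cannot give an exact two-sided permutation p under 0.333, which is the value it had. Prkdc, the gene of the kinase that Ku recruits, had 1.52 and 3.61 FPKM against 1.29 and 1.54 FPKM (log2 0.59, SE 0.33, adjusted p = 0.189). It was called higher under 5 of 16 other settings. Lig4 (log2 -0.04, adjusted p = 0.887) and its cofactor Xrcc4 (log2 0.13, adjusted p = 0.622), which seal the ends, had overlapping groups. The sign of Lig4 turned positive under 4 other scalings and with single libraries left out.

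Parp1 and Xrcc1, which act together at single-strand breaks and in a backup end joining route, moved apart. Parp1 (uc007dwi.1), the break sensor that makes poly(ADP-ribose), fell to 61.4 and 69.2 FPKM in Exosc3-depleted cells, against 165 and 202 FPKM in Exosc3-present cells (2.81-fold; log2 -1.48, SE 0.18, adjusted p = 0.00119). Xrcc1 (uc012ffm.1), the scaffold recruited by poly(ADP-ribose), rose to 58.4 and 49.8 FPKM, against 26.2 and 27.9 FPKM (2-fold; log2 0.98, SE 0.17, adjusted p = 0.00468), and its adjusted p was 0.0525 without Exosc3-present replicate 1. The ratio of Parp1 to Xrcc1 was 1.05 and 1.39 in Exosc3-depleted libraries, against 6.28 and 7.23 in Exosc3-present libraries (log2 difference -2.48, exact two-sided permutation p = 0.333, the smallest possible).

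**Figure D2:**
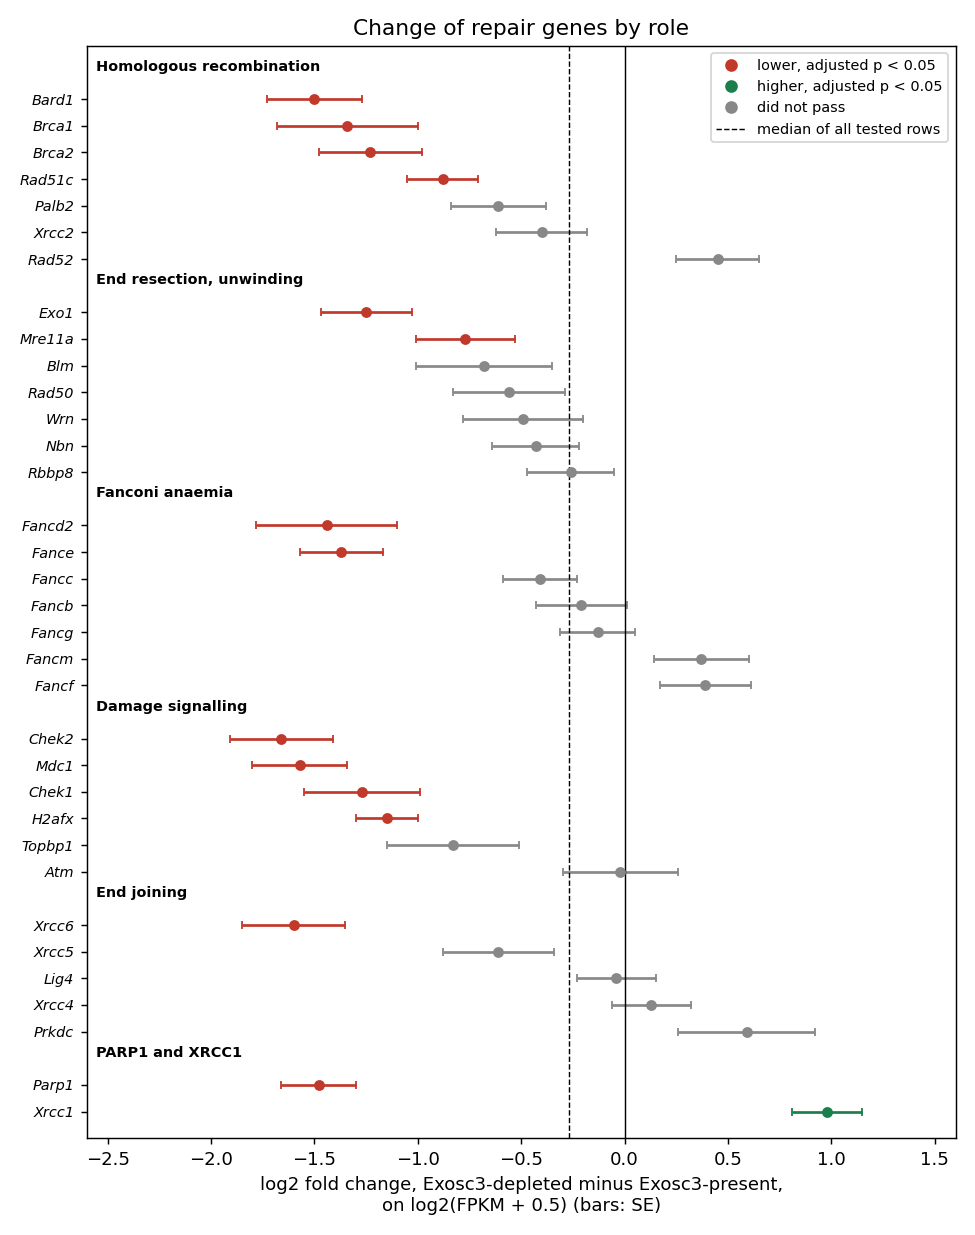
Log2 fold change on log2(FPKM + 0.5), Exosc3-depleted minus Exosc3-present, of the 34 repair genes by role, with bars for the SE from limma (n = 2 libraries each), a solid line at 0 and a dashed line at the median of all tested rows (-0.27). Red points are the 14 lower genes, the green point is Xrcc1 at 0.98, and grey points did not pass.

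Ratios within 9 pairs of interacting products were compared with the same exact test, which cannot pass at this size, and no other test was run on the ratios. The pairs were not among the planned comparisons, and their ratios restate the values of the single genes. Bard1 to Brca1 was the 1 ratio whose groups overlapped, at 1.24 and 0.772 against 1.13 and 1.06. Groups apart were common among single tested rows, with both Exosc3-depleted libraries below both Exosc3-present ones for 50.9% and above them for 22.2%. No such share was taken over other pairs of genes, so groups apart say little about these ratios. Mre11a to Rad50 was 2.09 and 1.92 against 2.41 and 2.17, a small shift beside that of Xrcc6 to Xrcc5. Brca2 to Palb2 was 0.457 and 0.477 against 0.693 and 1.1, and Prkdc to Xrcc6 was 0.209 and 0.306 against 0.0472 and 0.0499. FPKM is per length, so these ratios compare RNA levels of the 2 genes within a library and do not depend on the library total. The difference between the Exosc3-depleted replicates still went with model length (Spearman rho 0.46 over all 9336 rows). Its bearing on ratios of long to short models, such as Prkdc (12674 bases) to Xrcc6 (2113 bases), was not tested.

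**Figure D3:**
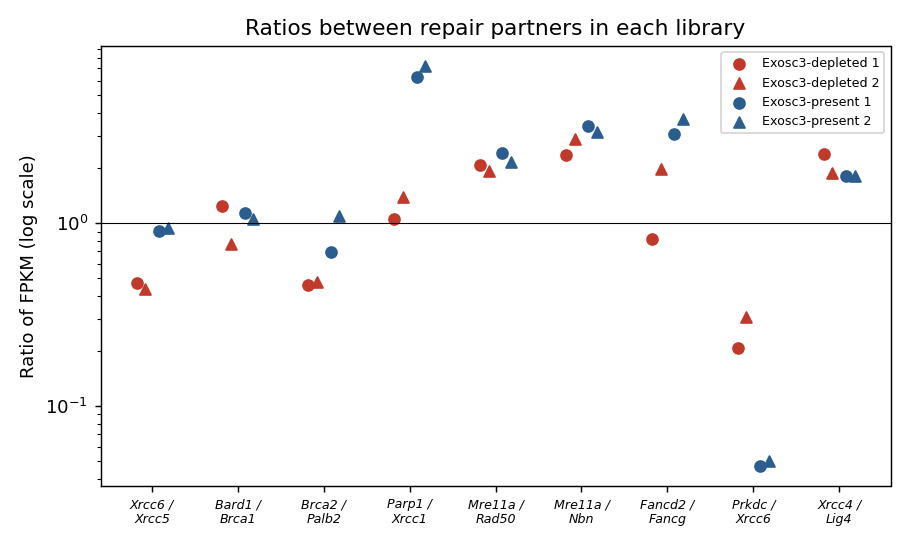
Ratio of FPKM (log scale) between 9 pairs of repair genes in each library, with Exosc3-depleted libraries in red left of Exosc3-present libraries in blue. The widest gaps are for Parp1 to Xrcc1 (1.05 and 1.39 against 6.28 and 7.23) and Prkdc to Xrcc6 (0.209 and 0.306 against 0.0472 and 0.0499).

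The levels of the 34 genes in Exosc3-present cells ran from 0.81 FPKM (Fancb) to 551 FPKM (H2afx), with a median of 3.17 FPKM in Exosc3-depleted cells and 4.6 FPKM in Exosc3-present cells. Over 10 FPKM were 4 genes in Exosc3-depleted cells and 11 in Exosc3-present cells. H2afx and Parp1 were first and second in both groups. Xrcc1 was the third in Exosc3-depleted cells and the fifth in Exosc3-present cells. Xrcc5 and Xrcc6 had neighbouring places in Exosc3-present cells, at 31.4 ± 1.97 and 29.1 ± 2.58 FPKM. Within these libraries the ratio of Xrcc6 to Xrcc5 was 0.911 and 0.945. At 21.2 ± 8.3 and 9.51 ± 3.21 FPKM, Xrcc5 and Xrcc6 were further apart in Exosc3-depleted cells. Bard1 was at place 25 in Exosc3-depleted cells and 14 in Exosc3-present cells, while Rad52 was at place 12 and 23.

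The Exosc3-depleted replicates differed more than the Exosc3-present ones. The log2 difference between replicates had an SD over the 34 genes of 0.402 in Exosc3-depleted cells and 0.169 in Exosc3-present cells. Over all tested rows the SD was 0.432 and 0.188. Replicate 2 was the higher Exosc3-depleted library for 28 of the 34 genes (82.4%; 57.6% of all tested rows), by a median of log2 0.48 (0.09 over all rows). It was also the higher Exosc3-present library for 31 of 34 (91.2%; 67.2% of all rows), by a median of log2 0.21 (0.07 over all rows). Across the repair genes the difference between the Exosc3-depleted replicates went with the length of the gene model (Spearman rho 0.56 over 34 genes; 0.46 over all 9336 rows), and these points share the same pair of libraries. Short models went both ways. H2afx (1359 bases), Fance (2016 bases) and Xrcc1 (2312 bases) were higher in replicate 1. Mre11a (1502 bases), Xrcc4 (1547 bases), Rad52 (1626 bases), Xrcc6 (2113 bases) and Chek2 (2247 bases) were higher in replicate 2. The long models of Prkdc (12674 bases), Atm (11964 bases) and Brca1 (6648 bases) were higher in replicate 2. The fold change between the groups had no such relation to length (rho -0.07 over the 34 genes, 0.02 over all rows). What set the 2 libraries apart was not tested.

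**Figure D4:**
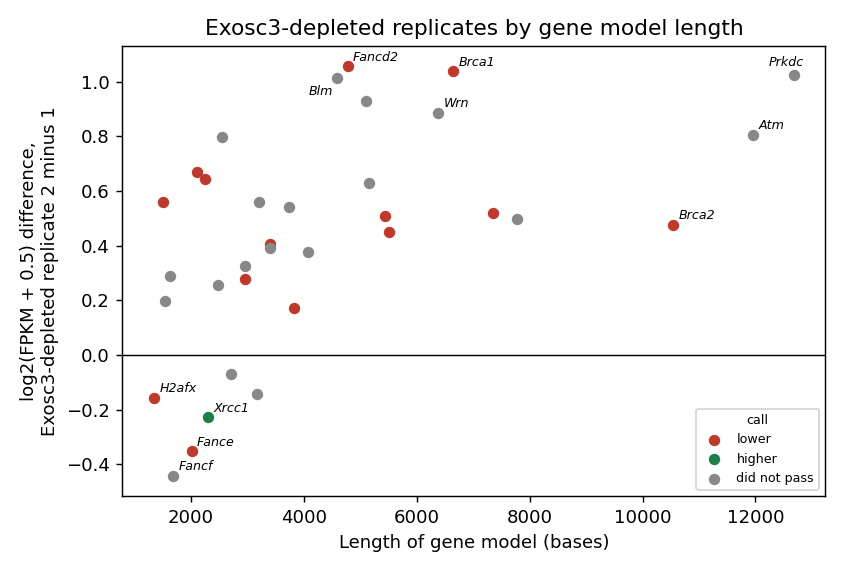
Difference of log2(FPKM + 0.5) between the 2 Exosc3-depleted replicates (2 minus 1) against the length of the gene model in bases, 1 point per repair gene, coloured by its call between the groups. Points above the line at 0 (28 of 34) were higher in replicate 2, and Prkdc, Atm, Brca1, Fancd2, Blm and Wrn lie near the top.

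Several repair genes share a promoter region with a gene on the opposite strand, and 13 of the 33 with a listed promoter had a start site of such a partner within 1000 bases upstream. For 7 pairs both genes were tested. Brca1 fell while Nbr1, an autophagy receptor gene that starts 152 bases away, had 9.69 and 18.8 FPKM in Exosc3-depleted cells against 18.9 and 20.7 FPKM in Exosc3-present cells (log2 -0.53, adjusted p = 0.192). Mre11a fell while Ankrd49, 81 bases away, had 3.29 and 3.85 FPKM against 2.4 and 2.34 FPKM (log2 0.50, adjusted p = 0.0669). Rad51c and Tex14, a germ cell gene 111 bases away, both fell (Tex14 log2 -0.93, adjusted p = 0.0215). In the other 4 pairs, Atm with the histone gene regulator Npat, Fancb with Mospd2, Lig4 with Abhd13 and Xrcc4 with Tmem167, neither gene passed. The difference within a pair was not tested, and whether counting used the strand is not given in the sources used here.

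Of 88 other tested repair genes, listed by name, 28 fell (31.8%, beside 30.1% of all rows) and 4 rose (4.55%, beside 12.6%). Of 16 tested recombination genes 7 fell and none rose (43.8%; median log2 -0.34). Among them were the nuclease-helicase gene Dna2 (log2 -1.23), the meiotic recombinase gene Dmc1 (2.54-fold, adjusted p = 0.00672) and Rad51ap1 (log2 -0.78). Of 11 crosslink genes 3 fell (27.3%): Ube2t, the enzyme that passes ubiquitin to FANCD2, at 4.52 and 5.1 FPKM against 13.5 and 13.8 FPKM (log2 -1.41, adjusted p = 0.00138), Mad2l2 (-0.91) and the helicase gene Brip1 (-0.65). Brip1 (0.497 ± 0.205 FPKM against 1.05 ± 0.102 FPKM) passed the filter on low values only through the Exosc3-present group, so its call says little. Of 11 end joining genes 2 fell (18.2%, beside 30.1% of all rows) and 2 rose (18.2%, beside 12.6%). However, 1 of the rises, Parp3 (0.701 ± 0.0949 FPKM against 0.329 ± 0.0283 FPKM), passed the filter on low values only through the Exosc3-depleted group and supports nothing. Nhej1, which encodes the XRCC4-like factor XLF, rose to 14 and 12.2 FPKM, against 4.19 and 2.72 FPKM (log2 1.81, SE 0.23, adjusted p = 0.00148), a rise that held in all 17 other settings. Tdp1 (-0.78) and Aptx (-0.64), which clean blocked ends, were lower. Of 24 signalling genes 7 fell and none rose (29.2%), among them the fork protection gene Tipin (-1.50), the phosphatase gene Cdc25a (-1.68) and Rpa2 (-1.09), a subunit of the single-strand binding protein. Trp53, the gene for p53, was at 157 and 135 FPKM against 108 and 107 FPKM and did not pass (log2 0.43, adjusted p = 0.0709).

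**Figure D5:**
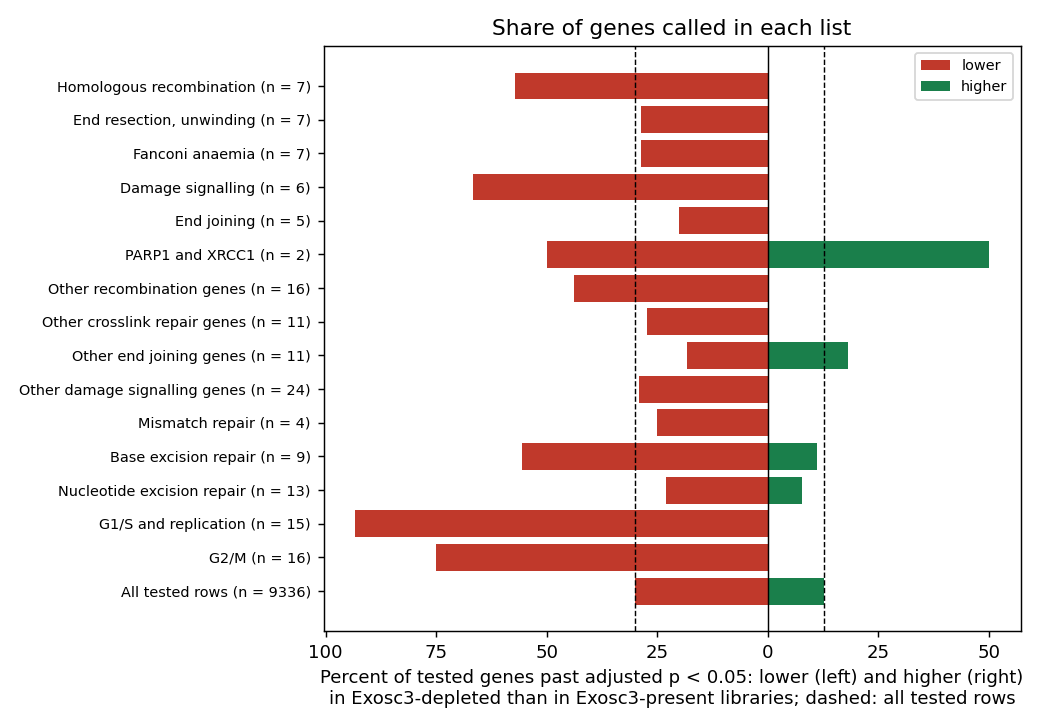
Percent of tested genes called lower (left, red) or higher (right, green) in Exosc3-depleted than in Exosc3-present libraries, for the 6 roles, the other repair lists, 2 cell cycle lists and all tested rows, with dashed lines at the shares of all rows (30.1% lower, 12.6% higher). Damage signalling (66.7%) and homologous recombination (57.1%) have the longest red bars among the roles with more than 2 genes, and the G1/S list (93.3%) exceeds both.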

How the data were processed

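The 4 libraries were stranded, ribosomal RNA-depleted and paired-end, per the labels' protocols. The authors deposited FPKM values per UCSC gene model in 1 column per library; mm9 is the genome build, and STAR, Bowtie2, bedtools, Picard and edgeR are the tools, listed in the submitters' processing notes. The step that made the FPKM is not given in the sources used here. Because each FPKM is a whole fragment number divided by length and library total, totals, lengths and fragments were recovered from these steps. Whole fragments resulted for all 15471 rows above 0, within 0.004 of a fragment plus a rounding term for high counts; limma-voom on them called 1736 rows lower and 1699 higher.

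Values were tested as log2(FPKM + 0.5) in limma 3.58.1 under R 4.3.3, with the prior variance following the mean. The 9336 rows averaging at least 0.5 FPKM entered, two-sided, Benjamini-Hochberg adjusted over all of them, threshold 0.05. This scale understates changes of low genes; N-fold values are ratios of mean FPKM. The scripts were tested on simulated data, where the limma test recovered most changed rows but more of its calls were false than the nominal threshold allows, so calls near 0.05 are less certain than their adjusted p. Alternatives covered pseudocount, filter, scaling, prior, replicate block and single libraries left out. The genes and lists were chosen with earlier results of these data known. Named were all 34 repair genes, the 3 genes of smallest p per other list, and a few chosen after their values were seen (Trp53, Nthl1, Pou5f1). Some genes of these lists are not reported here.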

Additional observations from a re-analysis of the deposited data

How the results depend on the processing

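No called repair gene changed sign under any of the 17 other settings. Scaling without the 50 highest rows left 9 of the 34 repair genes lower and 2 higher, in place of 14 and 1. Of the 88 other repair genes it left 9 lower and 8 higher, in place of 28 and 4. Of all 9336 rows it left 1330 lower and 1544 higher, in place of 2806 and 1177. Median-of-ratios scaling gave 4 repair genes higher and 15 other repair genes lower (all rows: 1848 lower and 1621 higher). Quantile normalization gave 2 repair genes higher, and 17 other repair genes lower and 7 higher (all rows: 1795 and 1577). Limma-voom gave 4 repair genes higher, and 12 other repair genes lower and 7 higher (all rows: 1736 and 1699). TMM scaling of FPKM, added after seeing the data, gave 3 repair genes higher and 17 other repair genes lower (all rows: 1906 lower and 1590 higher). With 1 library left out, called rows ran from 1750 to 6334 (main 3983), repair genes lower from 10 to 24 and higher from 0 to 5, other repair genes lower from 9 to 61 and higher from 2 to 11; such a fit takes its spread from the other group's pair. Both repair lists had their most lower calls without Exosc3-depleted replicate 2, and their most higher calls without Exosc3-depleted replicate 1. All tested rows peaked in those same fits, so these counts alone single out no change of repair genes. Same-numbered libraries deviated together across all rows (r = 0.24), but 2 pairs do not show pairing. With the replicate number as a block, repair genes higher were 2 and other repair genes lower 43. All 14 lower repair genes remained among 20, beside 37.1% of all rows called lower in that fit. Signs turned for genes that had not passed: Atm to 0.23 (limma-voom), 0.15 (median of ratios), 0.08 (quantile), 0.14 (TMM) and 0.24 (without the 50 highest), and from -0.42 to 0.38 over left-out libraries; Fancg to 0.13, 0.08, 0.09, 0.07 and 0.17 in that order; Lig4 to 0.22, 0.12, 0.11 (TMM) and 0.19 (without the 50 highest), and from -0.23 to 0.15 over left-out libraries; Fancb from -0.47 to 0.05 over them. The cause was not tested. The lowest repair gene count in a library was 53 fragments (Rad51c), where counting error is largest.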

Other observations

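Of 9 tested base excision repair genes 5 fell (55.6%, beside 30.1% of all tested rows) and 1 rose (11.1%, beside 12.6%). Mutyh, the glycosylase gene for adenine opposite oxidised guanine, was at 4.02 and 3.83 FPKM in Exosc3-depleted cells against 10 and 10.2 FPKM in Exosc3-present cells (log2 -1.26, limma adjusted p = 0.00203), and the glycosylase gene Neil1 (-1.14) and the flap nuclease gene Fen1 (-0.84) also fell. Nthl1, a glycosylase gene for oxidised pyrimidines, rose to 22.7 and 17.9 FPKM, against 12 and 11.3 FPKM (log2 0.77, adjusted p = 0.0172).

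Of 13 tested nucleotide excision repair genes 3 fell (23.1%) and 1 rose (7.69%), both shares below those of all tested rows. Ercc5, which encodes the nuclease XPG, rose to 6.84 and 11.2 FPKM, against 2.28 and 2.36 FPKM (log2 1.72, adjusted p = 0.00251), whereas Gtf2h3 (-0.81) and the damage sensor gene Xpc (-0.79) fell.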
